A study of Mus musculus with 6 samples.

Results

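The cytosolic ribosomal protein genes were taken as all features whose symbol begins with Rps or Rpl and a digit, or with Rplp and a digit, or is Rpsa. The 10 features named Rps6k, which encode kinases, were left out. The rule found 91 of 32285 features, 34 with small subunit names and 57 with large subunit names, and used no measured value. Of the 91, 74 reached 1000 CPM (counts scaled to a total of 1e6 per library) in at least 1 library, 7 peaked between 100 and 1000 CPM, 5 between 10 and 100 CPM, and 5 stayed under 10 CPM everywhere. The last 5 were Rpl10l, Rpl3l, Rpl39l, Rpl9-ps1 and Rpl36-ps4. The rule also took in Rps19bp1, which encodes a protein that binds Rps19 and is not itself part of the ribosome.

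T cells had been sorted from the kidneys of wild-type male C57BL/6J mice aged 7 to 8 weeks into CD4, CD8 and double negative (DN) cells, the latter with an αβ T cell receptor but neither co-receptor. Kidneys were normal (control) or had undergone ischemia-reperfusion (IR) by clamping both renal pedicles for 30 min, with injury checked by serum creatinine at 24 h. All groups were sorted with the same antibodies to CD45, the T cell receptor, CD4 and CD8. Each of the 6 groups had 1 library, neither the number of mice behind a library nor the time of harvest for sequencing was stated in the sources read, and the study itself set ribosomal genes aside. No difference below therefore has a replicate check, and all intervals cover counting error only.

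Each cytosolic ribosome holds a single copy of nearly every one of these proteins, so cells make them in matched amounts. Their mRNAs are short, abundant and stable, and most begin with a terminal oligopyrimidine (TOP) tract, a C followed by a run of C and T, through which mTOR signalling controls their translation. Quiescent naive T cells are known for a large share of such transcripts, and activated T cells for a rise in ribosome production.

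The first bases of the mRNA carry the TOP tract, so the starts of the 3 members that gained and the 3 that lost the most among ribosomal protein counts in IR CD4 cells are shown. Sequences are RefSeq gene starts on build GRCm38.p6, with 15 bases before the annotated start and 15 from it. Capitals mark a C followed by at least 4 bases that are each C or T, counted from the nearest such C within 5 bases of the start. C and T letters that stand before that C were left in lower case. The members that gained were Rps28 (minus strand, chr17:33824548-33824577), Rpl35 (minus strand, chr2:39005117-39005146) and Rps27 (minus strand, chr3:90213634-90213663).
Rps28: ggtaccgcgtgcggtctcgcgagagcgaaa
Rpl35: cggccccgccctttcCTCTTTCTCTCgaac
Rps27: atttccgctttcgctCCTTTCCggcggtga
Those that lost were Rpl5 (plus strand, chr5:107900513-107900542), Rpl13a (minus strand, chr7:45128731-45128760) and Rps6 (minus strand, chr4:86857353-86857382).
Rpl5: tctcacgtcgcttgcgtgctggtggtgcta
Rpl13a: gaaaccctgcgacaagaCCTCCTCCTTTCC
Rps6: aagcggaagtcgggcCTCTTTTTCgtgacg
Such letters therefore stood at the starts of members of both kinds. The RefSeq table held a start for 66 of the 91 members. The annotated start was itself such a C in 14 of them (21.2%) against 3.01% of the 27025 genes in the table, whatever letters came before it. Such a C lay within 5 bases of the start in 30 (45.5%) against 21.2%. Both were searched on the strand of the gene only. The starts are annotated and were not measured here, so members without such a C at the start cannot be read as lacking a TOP tract. Between IR and control CD4 cells the median log2 ratio was 1.08 over the 14 members with such a C at the start and 0.86 over 49 members without it, with ranges of -0.56 to 2.70 and -0.86 to 2.82 that overlapped nearly throughout. In CD8 the medians were 0.75 and 0.65, and in DN cells they were in the other order, 0.52 and 0.58. Of the 14 members, 8 encode proteins of at most 132 amino acids.

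Ribosomal protein transcripts took up a larger part of the messenger pool in every IR library than in any control library. After filtering, CD4 libraries held 9229 cells in control and 10125 in IR, CD8 libraries 9302 and 6369, and DN libraries 8905 and 4086, with pooled depths of 6378679 to 77452551 unique molecular identifiers (UMIs). In keeping with the sort, Cd4 was at 166 CPM in control CD4 cells against 0.11 and 0.27 in control CD8 and DN cells, and Cd8a at 637 CPM in control CD8 cells against 0.09 and 0.19 in CD4 and DN cells. A Cd3 UMI was found in 91.3% to 99.2% of cells. Median UMIs per cell were 7032, 6629 and 8363 in the control libraries and 2354, 1758 and 1450 in the IR libraries, and the file headers named different software versions for the conditions, so that condition, depth and version cannot be told apart by design. Between 0.97% and 1.52% of barcodes were shared between pairs of IR libraries, against 0.17% to 0.33% for all other pairs.

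Pooled over a library, the ribosomal protein share of UMIs was 16.5% in control CD4, 22.8% in control CD8 and 16.5% in control DN cells. It was 35.6% in IR CD4, 42.9% in IR CD8 and 27.2% in IR DN cells. The widest exact 95% binomial interval, in IR DN cells, ran from 27.20% to 27.27%. The IR share was thus 2.16-fold the control share in CD4, 1.88-fold in CD8 and 1.65-fold in DN cells. CD8 cells had the largest share in both conditions, while DN cells equalled CD4 cells in control and were lowest in IR.

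The difference ran through the whole population of cells. The median cell held 15.2%, 21.1% and 15.7% in CD4, CD8 and DN cells of control kidneys, and 33.3%, 44.1% and 26.8% in their IR counterparts. Of the IR cells, 73.0% (CD4), 72.0% (CD8) and 68.0% (DN) lay above the 95th percentile of control cells of the same subset. Cells of 1 library still differed widely. After each cell was thinned to 1000 UMIs, the SD over cells was 5.34 to 10.5 percentage points, against 1.12 to 1.56 from binomial counting alone. A thinned cell showed a median of 62 to 68 of the 91 genes in control and 68 to 72 in IR.

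**Figure D1:**
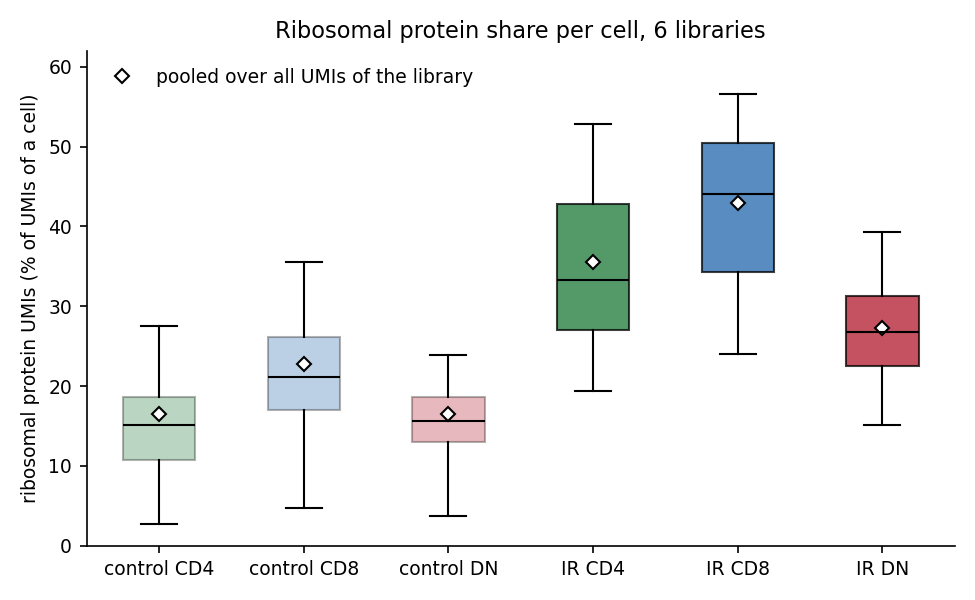
Percentage of each cell's UMIs from ribosomal protein genes (vertical axis) in the 6 libraries. Boxes span the 25th to 75th percentile of cells with the median as a line, whiskers the 5th to 95th, and diamonds the pooled share, which lies between 16.5% and 22.8% in control and between 27.2% and 42.9% in IR.

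Control CD4 and DN cells of low depth had few ribosomal protein UMIs, while control CD8 cells of low depth did not. Among control cells with 1000 to 2000 UMIs the share was 5.05% in CD4, 19.9% in CD8 and 4.88% in DN cells, against 18.0%, 24.9% and 17.2% in cells with 8000 UMIs or more. IR cells with 1000 to 2000 UMIs held 31.4%, 42.6% and 26.9%. In this range the IR libraries were therefore further above control than in the pooled comparison, while at 500 to 1000 UMIs CD8 cells were at 22.8% in control and 25.2% in IR. In the shallow control CD4 and DN cells Malat1, a nuclear RNA, was at 5.59% and 6.23% of UMIs and mitochondrial transcripts at 6.86% and 6.89%, against 2.23% and 3.21% and 2.33% and 1.85% over their whole libraries. In control CD4 cells 23.2% had a share under 10%, against 7.54% and 9.08% of control CD8 and DN cells and 1.02% to 2.99% of IR cells.

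**Figure D2:**
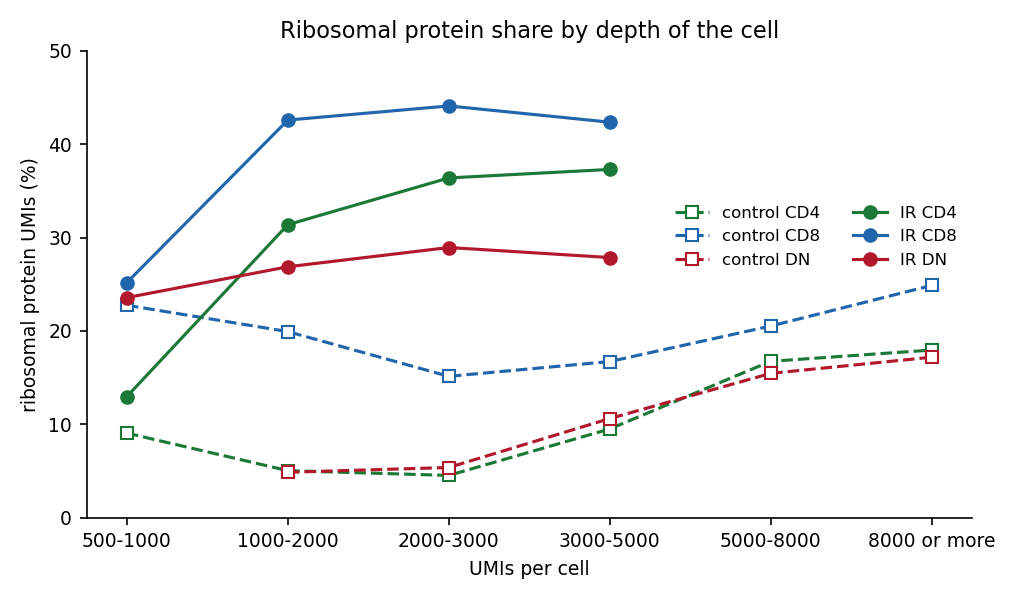
Ribosomal protein share of UMIs (vertical axis, %) in cells grouped by UMIs per cell (horizontal axis), 1 line per library, for depth ranges with at least 50 cells. IR lines (filled) lie above the control lines (open) of the same subset in every range that both fill.

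Other markers of RNA quality moved with condition. Mitochondrial transcripts took 1.75% to 2.33% of control UMIs and 0.95% to 1.13% of IR UMIs, Malat1 2.08% to 3.21% and 1.23% to 2.09%, and Gm42418, a locus that collects rRNA-derived reads, 0.72% to 2.14% and 0.14% to 0.20%. Left out of the denominator, mitochondrial genes and Malat1 changed the log2 ratio of the share little (1.08, 0.89 and 0.70 against 1.11, 0.91 and 0.73 in CD4, CD8 and DN). Members have short introns: 80 of 86 members at 10 CPM or more fell among the 1813 of 9061 features with the least intronic length, with a median of 1105 intronic bases against 20739. Member UMIs were also taken as a share of all member UMIs plus those of the non-members in that group. The log2 ratio of this share was 0.57 in CD4, 0.43 in CD8 and 0.35 in DN cells. With members above and below the line, it is not the ratio of members to those non-members. Features of that group that were no members had a median log2 ratio of 0.01, -0.34 and 0.06. Non-members with longer introns had -0.76, -0.90 and -0.52, and members 0.86, 0.65 and 0.57. The part of intron length in the share was not tested. Marker genes of myeloid, B, erythroid, tubule and endothelial cells summed to 296 to 337 CPM in control and 227 to 306 CPM in IR libraries, sums carried mostly by Ighm, Cst3 and Pecam1. Single lists differed from this. Erythroid markers summed to 1.37 to 1.63 CPM in control and 11.1 to 17.3 CPM in IR, the B cell marker Ms4a1 was at 0.16 to 0.36 CPM and 2.39 to 11.1 CPM, and the neutrophil marker S100a9 at 0 to 0.013 CPM and 0.16 to 6.98 CPM. The part of other cells in the share was not tested.

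Most naive-like marker genes also moved with condition. Ccr7, the receptor that guides naive and central memory T cells to lymph nodes, was at 25.8, 62.7 and 0.72 CPM for CD4, CD8 and DN cells of control kidneys and at 152, 383 and 5.80 CPM in their IR counterparts. Of 9 genes listed for naive or recirculating cells, 7 were at least 2-fold higher in IR CD4 and 4 in IR CD8 cells, beside 4.09% and 4.4% of all features. In DN cells it was 2 of the 6 at 10 CPM or more, Klf2 (log2 ratio 1.36) and Il7r (2.09), with a list median of 0.19, beside 6.89%. Cells with a Ccr7 UMI held a larger thinned share, 23.8% against 14.5% without in control CD4 and 28.8% against 21.04% in control CD8. In IR the same contrast was 44.7% against 33.8% in CD4 and 47.8% against 40.8% in CD8. Among cells without a Ccr7 UMI the IR share was 2.33-fold (CD4) and 1.94-fold (CD8) the control share. At these depths a cell without a Ccr7 UMI may still express the gene, and the part of naive-like cells in the share was not tested. Foxp3, the factor that defines regulatory T cells, went with a lower share in IR CD4 cells, 28.1% in 163 cells against 35.1%, and with 13.9% in 109 cells against 14.7% in control CD4. In IR CD8 cells with a UMI of the granzymes Gzmk or Gzma the share was 31.1%, against 43.9% without. Control CD8 cells gave 19.2% against 21.8% for that contrast. DN cells with a UMI of Klrb1c, which encodes NK1.1, differed little from those without (15.5% against 15.7% in control, 26.3% against 27.4% in IR).

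Gene by gene, members differed at least 2-fold upward far more often than other features between IR and control, and none was 2-fold lower. In CD4, 30 of 85 members tested at 10 CPM were at least 2-fold higher, against a background of 4.09% of 8414 features. In CD8 it was 22 of 86 against 4.4%, and in DN 14 of 85 against 6.89%. No member was at least 2-fold lower, against a background of 30.4%, 38.6% and 16.9% of features. The 14 members past 2-fold in all 3 subsets were Rpl22l1, Rpl35, Rpl35a, Rpl36, Rpl37, Rpl37a, Rpl38, Rpl39, Rpl41, Rps20, Rps27, Rps27a, Rps28 and Rps29, and the 30 called in any subset were all called in CD4. The median log2 ratio over members was 0.86, 0.65 and 0.57 (CD4, CD8 and DN) beside -0.63, -0.80 and -0.42 over all features. Scaling by trimmed mean of M values (TMM) raised the median of all features by 0.34, 0.47 and 0.04 and the count of members called to 60, 57 and 17, beside 7.52%, 8.61% and 7.24% of features under that scaling.

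For 41 of 86 members all 3 IR libraries lay above all 3 control libraries, beside 11.2% of features at 10 CPM or more. For 7, namely Rpl5, Rpl13a, Rpl17, Rpl7l1, Rps6, Rps12 and Rps15, all IR libraries lay below all control libraries, beside 56.3% of features. Under TMM, and likewise in CPM without ribosomal protein genes, only 1 member, Rpl7l1, stayed wholly below. The IR ratio was above 0 in all 3 subsets for 70 members under each of these 3 scalings, beside 15.7% of features in CPM, 24.6% under TMM and 27.2% without ribosomal protein genes. It was below 0 in all 3 subsets for 12 members in CPM and for 6 under either other scaling, which were Rpl5, Rpl10, Rpl13a, Rpl17, Rpl7l1 and Rps6. Of all features 67.9%, 57.1% and 53.8% were below 0 in all 3 subsets under these scalings.

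For the 74 members that reached 1000 CPM, the exact 95% Poisson interval of a library's CPM extended at most 3.67% to either side, in IR DN cells. Of the 86 members, 22 overlap an annotated gene on the opposite strand, Rps28, Rpl35 and Rpl5 among them, and the use of strand in counting was not stated in the sources read. Processed copies of many members exist in the genome, and reads that fit several of them may be lost or split. A 3' UMI counts a transcript once, so CPM was not divided by length.

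Rps28, a small subunit protein, was at 1531, 2973 and 2711 CPM in control CD4, CD8 and DN cells. It was at 10820, 15778 and 8257 CPM in IR. The IR values did not overlap those of control, and the log2 ratios were 2.82, 2.41 and 1.61. Rpl35, a large subunit protein near the exit of the peptide tunnel, was at 666, 1275 and 843 CPM in control and 4335, 6530 and 3454 CPM in IR, with log2 ratios of 2.70, 2.36 and 2.03. Rps27, a zinc finger protein of the small subunit, was at 2822, 4360 and 4834 CPM in control and 15431, 16017 and 13614 CPM in IR. Its log2 ratios were 2.45, 1.88 and 1.49. Rps29 was the most abundant member in IR CD4 and CD8 cells, at 16576 and 20073 CPM, and Rps24 in control CD4 and CD8 cells, at 5421 and 7700 CPM.

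Rpl5, which with Rpl11 and 5S rRNA binds the p53 regulator Mdm2, was at 1036, 1049 and 804 CPM in control and 572, 609 and 450 CPM in IR. Its log2 ratio was -0.86, -0.79 and -0.84, and -0.53, -0.33 and -0.79 under TMM. Its partner Rpl11 went the other way, from 2185, 2791 and 1815 CPM to 4160, 4995 and 3292 CPM. Rpl13a, also known from translational silencing outside the ribosome, was at 2469, 2400 and 1873 CPM in control and 1411, 1396 and 1149 CPM in IR. Rps6, the substrate of the S6 kinases, was at 1333, 1415 and 973 CPM in control and 906, 860 and 612 CPM in IR. In CPM all 3 were lower in every IR library than in any control library, by less than 2-fold within a subset.

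The stalk proteins, which recruit translation factors to the large subunit, did not move alike. Rplp0, the base of the stalk, was at 2475, 3677 and 1950 CPM in control and 5444, 6835 and 2901 CPM in IR. Rplp1 was at 3521, 5054 and 3373 CPM in control and 3764, 4438 and 2703 CPM in IR, so that its ranges overlapped. Rplp2 was at 1783, 2579 and 2154 CPM in control and 2892, 3508 and 2351 CPM in IR. The log2 ratio in CD4 cells was 1.14 for Rplp0, 0.10 for Rplp1 and 0.70 for Rplp2.

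Members tied to specialised or regulated translation also spread widely. Rpl38, which is needed for translation of Hox mRNAs, was at 1602, 2565 and 3018 CPM in control and 6870, 8288 and 6865 CPM in IR. Rpl10a was at 1272, 1824 and 1091 CPM in control and 2313, 2959 and 1517 CPM in IR, and Rps25, which serves internal ribosome entry, at 916, 1017 and 862 CPM and 1005, 1249 and 907 CPM. Rps19, mutated in Diamond-Blackfan anemia, was at 2284, 3426 and 1868 CPM in control and 6304, 7281 and 3718 CPM in IR. Rps27a, made as a fusion with ubiquitin, was at 2446, 3371 and 2198 CPM in control and 5944, 7708 and 4437 CPM in IR. Rpsa, also described as a laminin receptor, was at 3232, 4481 and 2685 CPM and at 6061, 7485 and 3939 CPM. Rps25 was the flattest of these, with a log2 ratio of 0.13, 0.30 and 0.07.

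**Figure D3:**
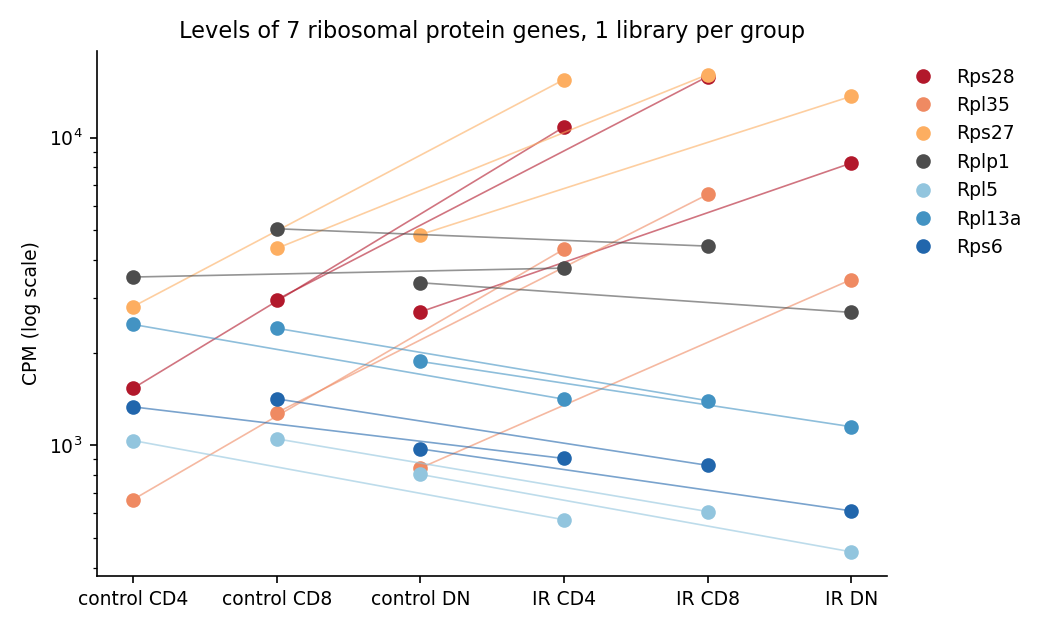
CPM (vertical axis, log scale) of 7 members in the 6 libraries, 1 point per library, with lines joining control and IR of a subset. Rps28, Rpl35 and Rps27 lie higher in every IR library, Rpl5, Rpl13a and Rps6 lower in CPM, and Rplp1 changes little (log2 ratio 0.10, -0.19 and -0.32).

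Members did not keep their proportions among ribosomal protein UMIs. As a share of those UMIs, 6 members were at least 2-fold up and 14 at least 2-fold down in IR CD4, 5 and 13 in IR CD8, and 2 and 14 in IR DN cells. Among members at 50 CPM or more, Rpl5 had the lowest log2 ratio of this share in all 3 subsets (-1.97, -1.70 and -1.56), while the low Rpl36a-ps1 was at -1.60 in DN cells. The highest was Rps28 in CD4 (1.71) and CD8 (1.49) and Rpl35 in DN cells (1.31), and Rpl39 was among the first 3 in CD8 (1.23) and Rpl22l1 in DN cells (1.01). The 10 most abundant members took 21.8% to 23.9% of ribosomal protein UMIs in control and 30.0% to 32.7% in IR.

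Members that encode short proteins gained the most. Split into 3 groups of like size by protein length, a division chosen after the values were seen, the 29 members of 25 to 132 amino acids had a median log2 ratio of 1.40, 1.26 and 0.86 (CD4, CD8 and DN). The 28 of 133 to 188 amino acids had 0.82, 0.60 and 0.52, and the 29 of 192 to 419 amino acids 0.81, 0.55 and 0.42. Of the shortest group, 21, 18 and 13 were at least 2-fold higher, against 3, 0 and 0 of the longest. Among features that are no members, 13.9%, 8.33% and 11.6% of those with equally short proteins and 2.17%, 2.70% and 5.06% of those with long proteins were 2-fold higher. Across 86 members, Spearman's rho between protein length and the log2 ratio was -0.50, -0.52 and -0.43. These points share libraries and are given as a description. Rpl41, with 25 amino acids, was at 1576, 2636 and 2921 CPM in control and 7716, 10685 and 6824 CPM in IR, while Rpl4, the longest at 419 amino acids, was at 811, 997 and 670 CPM and at 675, 741 and 491 CPM. Features that are no members and encode proteins no longer than those of the shortest group also had a higher median log2 ratio (0.35, 0.10 and 0.41) than those longer than the middle group (-0.73, -0.90 and -0.51).

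Members also differed by protein length between some subsets of the same condition and software version. Spearman's rho between protein length and the log2 ratio was -0.74 for DN over CD4, -0.54 for DN over CD8 and -0.47 for CD8 over CD4 in control, and -0.46, -0.08 and -0.32 for these in IR. In IR DN over IR CD8 cells the groups by length did not differ in that order, with medians of -0.64, -0.62 and -0.69 from the shortest to the longest. Nor were the medians in full order for CD8 over CD4 cells in control (0.63, 0.37 and 0.42). Control DN and control CD4 cells had equal shares of ribosomal protein UMIs (log2 ratio 0.00), and no member was 2-fold higher or lower there, against 1.20% and 1.39% of 8427 features. Yet 23 of 29 short members were higher in DN cells and 24 of 29 long members lower, with medians of 0.33 and -0.24. Features that are no members differed less by length there, with medians of 0.086 for short and -0.02 for long proteins. Rpl38 was at 3018 CPM in control DN against 1602 in control CD4 cells, Rpl41 at 2921 against 1576, and Rps28 at 2711 against 1531. Rpl12 was at 1724 against 2504 CPM and Rps6 at 973 against 1333 CPM. Across all 6 libraries, the shortest group took 28.3%, 31.6% and 37.6% of ribosomal protein UMIs for CD4, CD8 and DN cells of control kidneys and 43.6%, 45.4% and 46.8% in their IR counterparts. In cells of 1000 to 3000 UMIs it took 28.6%, 30.0% and 35.4%, and 43.7%, 45.5% and 46.8%. The values of cells in this range thus lay within a few percentage points of those of their library. Among thinned cells it was 28.0% with and 28.4% without a Ccr7 UMI in control CD4, and 43.4% and 43.7% in IR CD4.

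**Figure D4:**
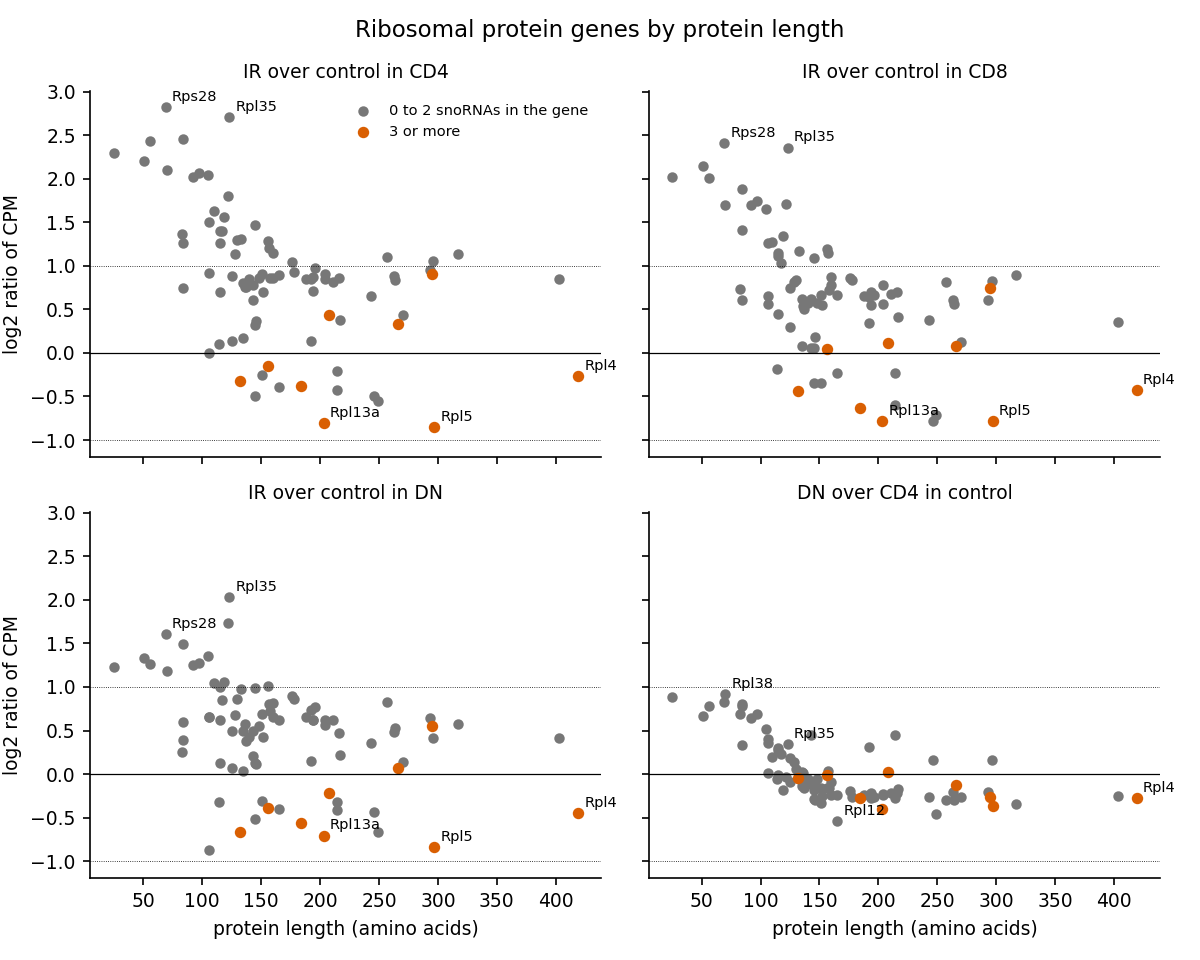
Log2 ratio of CPM (vertical axes) against protein length in amino acids (horizontal axes) for the 86 members at 10 CPM or more in 4 comparisons. Dotted lines mark 2-fold, and the highest points belong to the shortest group in all panels. Most members whose genes hold 3 or more snoRNAs (orange) lie low in the IR panels, with medians of -0.27, -0.43 and -0.45. The highest of them, Rpsa, reaches 0.91, 0.74 and 0.55.

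Members whose genes hold several small nucleolar RNAs (snoRNAs), which are made from introns, mostly stood low. By GENCODE annotation, and also looked at after the values were seen, 9 members hold 3 or more snoRNAs, 21 hold 1 or 2 and 56 hold none. The median log2 ratio of IR over control was -0.27, -0.43 and -0.45 over the 9 and 0.89, 0.70 and 0.62 over the 56 (CD4, CD8 and DN). The 21 members with 1 or 2 snoRNAs had 0.86, 0.61 and 0.55, close to those with none. Among the 9 were Rpl4 with 5, Rpl13a with 4, and Rpl5, Rpl7a, Rpl17, Rpl23a, Rps12 and Rpsa with 3. Of those named Rpsa stood highest, at 0.91, 0.74 and 0.55. Rps6, Rps15 and Rps14 lay low without a snoRNA. Between control DN and CD4 cells the medians were -0.27 and -0.05.

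Subsets also differed from one another. In IR, 78 of 86 members followed the order CD8 above CD4 above DN, and in control 70 were highest in CD8 cells, beside 6.64% and 26.8% of the 9062 features at 10 CPM or more. The median log2 ratio over members of IR DN cells was -0.39 to IR CD4 and -0.63 to IR CD8 cells, beside 0.19 and 0.45 over all features. No member was 2-fold higher or lower in control DN than in control CD8 cells (backgrounds of 3.92% and 2.6%), in control CD8 than in control CD4 cells (1.32% and 2.86%), or in IR DN than in IR CD4 cells (6.3% and 1.61%). Between IR CD8 and IR CD4 cells Rpl36a-ps1 alone was higher (log2 ratio 1.26) and none lower, beside 2.68% and 4.47%. In IR DN cells none was higher than in IR CD8 cells, against 13.5% of features. Against IR CD8 cells, 3 members were at least 2-fold lower, Rplp0 (log2 ratio -1.24), Rps20 (-1.17) and the low Rpl36a-ps1 (-1.77), beside 2.19% of 8038 features. Rplp0, Rps19 and Rps20 were lowest in DN cells in both conditions, with Rps19 at 3718 CPM in IR DN against 6304 and 7281 in IR CD4 and CD8 cells.

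Paralogs shifted against their main genes. Rpl22l1, which can take the place of Rpl22 in the ribosome, was at 455, 706 and 444 CPM in control and 1589, 2315 and 1483 CPM in IR. Relative to Rpl22 it stood at 38.5%, 43.7% and 34.1% in control and 61.1%, 81.2% and 71.2% in IR. Rps27l, a target of p53, stood at 2.53%, 1.76% and 1.86% of Rps27 in control and 0.78%, 0.73% and 1.0% in IR, although its own CPM was higher in IR (71.4, 76.8 and 89.8 against 120, 117 and 136). Rpl36al stood at 87.8%, 71.5% and 66.9% of Rpl36a in control and at 58.3%, 47.1% and 67.2% in IR, so that DN cells kept the ratio. Rpl7l1, which acts in ribosome assembly, was at 52.5, 53.6 and 58.8 CPM and at 37.4, 31.3 and 43.6 CPM. Rps27rt, a near copy of Rps27, was at 92.7 to 162 CPM in control and 212 to 385 CPM in IR, and its reads cannot be told apart with certainty from those of Rps27. The tissue-restricted Rpl3l, Rpl10l and Rpl39l stayed at 0 to 3.45 CPM.

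Cytosolic ribosomal proteins with other names differed by gene. Fau, which carries Rps30, was at 3930, 5278 and 4231 CPM in control and 10427, 11982 and 9032 CPM in IR. Rack1, the scaffold on the small subunit head, was at 1327, 1606 and 1016 CPM in control and at 865, 879 and 552 CPM in IR. Likeness to the ribosomal protein share over the 6 libraries was ranked among 1817 features by Pearson's r of log2 CPM with the log2 share. The features most like it were Gas5 (0.996), a TOP RNA that hosts snoRNAs, Ssr4 (0.989), Lsm4 (0.987), Atp5g2 (0.986) and Prdx1 (0.983). With 6 points that fall into control and IR this likeness is a description.

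Apart from the ribosomal proteins with other names, the other gene groups of the translation machinery given here had lower medians than the ribosomal protein genes. Each of them still lay above the median of all features in each subset (-0.63, -0.80 and -0.42). Ribosome biogenesis genes (-0.40, -0.58 and -0.41) did so only barely in DN cells. The shares of all features past 2-fold, against which the counts here are to be read, were 4.09%, 4.4% and 6.89% upward and 30.4%, 38.6% and 16.9% downward. Of 19 other TOP mRNAs, only Gas5 was at least 2-fold higher in IR CD4 (log2 ratio 1.41) and CD8 cells (1.05), and Pabpc1, the poly(A)-binding protein, in DN cells (1.05), where Vim was 2-fold lower (-1.03). The list medians were 0.33, 0.01 and 0.21. No elongation factor of 5 passed 2-fold, with medians of 0.06, -0.37 and -0.31, and Eef1a1, which brings aminoacyl-tRNA to the ribosome, was at 3834, 4855 and 3695 CPM in control and 3995, 3750 and 2988 CPM in IR. Of 29 initiation factors, Eif1 (1.21) and Eif5a (1.07) were higher and Eif3a lower (-1.05) in CD4. In CD8 none was higher and 5 were lower, Eif5, Eif3a, Eif4h, Eif3c and Eif4g1 (-1.37 to -1.04), and in DN cells Eif1 was higher (1.30) and Eif3c lower (-1.03). Their medians were -0.30, -0.53 and -0.37. Of ribosome biogenesis genes, 0 of 29, 28 and 28 were 2-fold higher and 2, 5 and 1 lower, smaller shares than those of all features in both directions, among them Nolc1 in each subset (-1.33, -1.44 and -1.56) and Polr1a, the catalytic subunit of RNA polymerase I, in CD4 (-1.23) and CD8 (-1.24). Of 14, 14 and 15 S6 kinase and mTOR genes none was 2-fold higher and 4, 3 and 2 were lower, no larger shares than those of all features. Rps6ka1 and Rps6ka3 were lower in each subset, Rptor, which encodes the mTOR partner raptor, in CD4 (-1.64) and CD8 (-1.65), and Rps6ka5 in CD4 (-1.15). Mitochondrial ribosomal proteins, 76 genes at 10 CPM or more, had medians of 0.19, -0.13 and 0.18, with Mrpl52 2-fold higher in CD4 (1.52) and CD8 (1.23) and Mrps24 in DN cells (1.02), and 1, 2 and 1 genes 2-fold lower. Among 14 abundant compact housekeeping genes, Tmsb10 was 2-fold higher in every subset (2.07, 1.78 and 1.68) and Fth1 in DN cells (1.13), with list medians of 0.06, -0.04 and 0.09. The plot of list medians leaves out the naive-like genes (medians of 1.41, 0.84 and 0.19) and the ribosomal proteins with other names (1.41, 1.18 and 1.09), some of which lie further right.

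**Figure D5:**
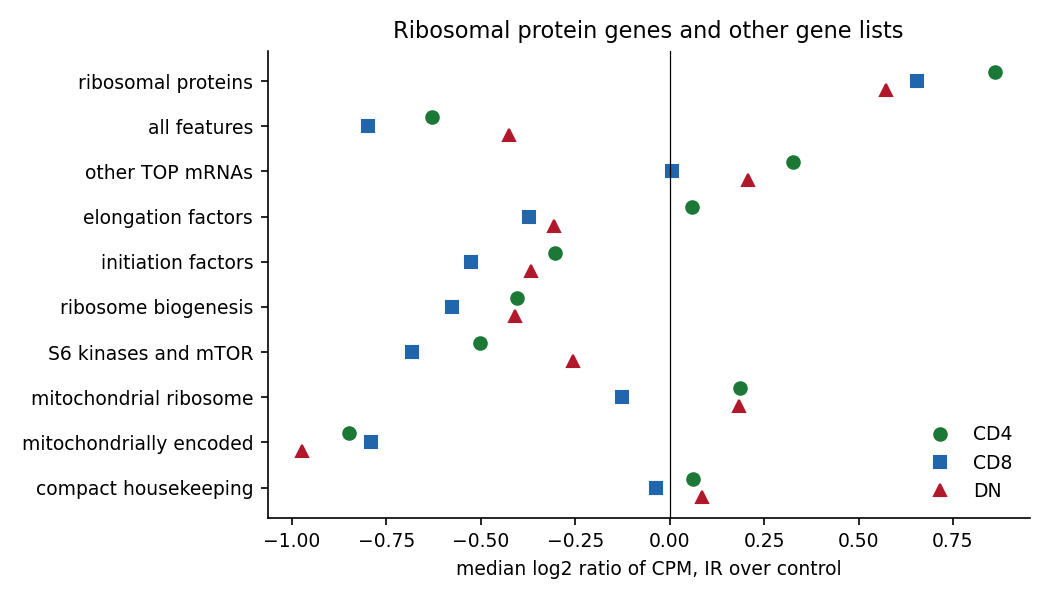
Median log2 ratio of CPM, IR over control (horizontal axis), for the ribosomal protein genes, all features and 8 other gene lists, 1 symbol per subset. The ribosomal protein medians (0.86, 0.65 and 0.57) lie to the right of the 8 other lists plotted in all 3 subsets, and the median of all features lies at -0.63, -0.80 and -0.42.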

How the data were processed

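Single-cell RNA sequencing data of 6 libraries were used. The deposited matrices hold raw UMI counts per gene and barcode, made by the authors from 3' libraries of 10x Genomics using Cell Ranger and mm10. The methods and labels name version 6.0.1, and the file headers 5.0.1 for control and 6.0.1 for IR. Groups came from the sample titles. Barcodes with at least 500 features and at most 20% mitochondrial UMIs were kept, the top 5% by UMIs of each library were removed as likely doublets, and 261 barcodes with no Cd3 UMI but at least 2 UMIs of other-cell markers were removed by that fixed rule in place of clustering. This left 48016 of 54039 barcodes, with 6378679 to 77452551 UMIs per library. No doublet caller was run.

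Counts were summed per library and given as CPM over all UMIs. With 1 library per group no test was run: a feature was counted as higher or lower at 2-fold and at least 10 CPM in the higher library, with a count of 0 set to 3 counts. Intervals are exact 95% Poisson or Clopper-Pearson intervals and cover counting error only. For shares by marker, cells were thinned to 1000 UMIs, which left out 34 to 564 shallower cells per library. Gene models, protein lengths and snoRNAs came from GENCODE M21 (GRCm38), where 99.8% of features matched, and starts from RefSeq (GRCm38.p6). Named genes were fixed by role or paralogy, plus the 3 members at each end of the change in composition at 50 CPM or more. The feature most like the share was sought over 6 libraries. The members, lists and rules were chosen with earlier results of these data known. Alternatives covered filters, depth, denominators and scaling (TMM in edgeR 4.0.16, R 4.3.3). The arithmetic of the calls was checked on simulated counts with known changes, which says nothing of the spread between replicates. Analyses used Python 3.11.15, numpy 2.4.6, scipy 1.17.1 and pandas 2.3.3. Some genes are not reported here.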

Additional observations from a re-analysis of the deposited data

Results flagged for a closer look

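For 3 members given here the ratio of IR to control pointed in opposite directions in different subsets, and these differences between subsets were not tested, since each group had 1 library. The log2 ratio of Rplp1, a stalk protein, was 0.10 in CD4, -0.19 in CD8 and -0.32 in DN cells. Rpl23a gave 0.041 in CD8 cells, -0.15 in CD4 and -0.39 in DN cells. The pseudogene-named Rpl36a-ps1, at 5.02 to 17.1 CPM, gave 0.56 in CD8 and -0.88 in DN cells. Under TMM the DN values remained below 0 (-0.28, -0.34 and -0.83) and the CD4 and CD8 values of all 3 were above 0.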

How the results depend on the processing

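With 1 library per group no value has a replicate spread, so a share was taken to move when it left its very narrow counting interval. The log2 ratios of the ribosomal protein share are given in the order IR over control in CD4, CD8 and DN, DN over CD4 and over CD8 in control, and DN over CD4 and over CD8 in IR, where they were 1.11, 0.91, 0.73, -0.0011, -0.47, -0.38 and -0.65. All but the fourth kept their direction under each of the 10 alternatives. With the deepest 5% of barcodes kept they were 1.08, 0.88, 0.70, 0.012, -0.44, -0.36 and -0.62, and without cell filters 1.07, 0.88, 0.69, 0.014, -0.44, -0.37 and -0.63. As a mean over cells they were 1.24, 0.97, 0.78, 0.092, -0.46, -0.37 and -0.65, and without mitochondrial genes and Malat1 1.08, 0.89, 0.70, 0.0065, -0.45, -0.38 and -0.64. Over members plus other features with short introns they were 0.57, 0.43, 0.35, -0.022, -0.33, -0.24 and -0.41. In cells of 1000 to 3000 UMIs the first 6 were 2.87, 1.26, 2.40, 0.13, -1.80 and -0.34, where control CD4 and DN cells held few ribosomal protein UMIs. With a mitochondrial limit of 10% the CD4 and CD8 values moved to 1.10 and 0.91 and the fourth to -0.0069. With barcodes of other cells kept, the IR contrasts were 1.11, 0.91 and 0.72, and DN over CD4 in IR was -0.39. With all barcodes lacking a Cd3 UMI removed, IR over control was 0.92 in CD8 and 0.74 in DN, and the comparisons of DN with CD4 in control and with CD4 and CD8 in IR were -0.0051, -0.37 and -0.64. Without barcodes shared between libraries, a setting added after the data were seen, the IR contrasts were 1.11, 0.92 and 0.74 and the comparisons of DN were 0.0003 with CD4 in control and -0.37 and -0.65 with CD4 and CD8 in IR.

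The counts of members at least 2-fold higher in IR (30, 22 and 14 in CD4, CD8 and DN) became 60 and 57 under TMM in CD4 and CD8, 61, 52 and 24 in CPM without ribosomal protein genes, and 82, 43 and 79 in cells of 1000 to 3000 UMIs. The share of all features so called was 7.52% and 8.61%, then 8.62%, 8.99% and 9.53%, and then 13.2%, 4.78% and 14.5% in these settings. Other settings kept them within 1.5 times, and the count of members 2-fold lower was 0 under each alternative. No paired analysis was possible because each group had a single library and no label pairs libraries across groups. Members under 10 CPM were limited by depth, with a floor of 3 counts at 0.039 to 0.47 CPM per library.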

Other observations

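The barcodes set aside before analysis also differed between conditions in their ribosomal protein share. The deepest 5% held 17.9%, 23.1% and 19.2% for CD4, CD8 and DN cells of control kidneys and 32.6%, 37.0% and 28.1% in their IR counterparts. Barcodes under 500 features held 10.3%, 21.4% and 7.72% in control and 14.8%, 44.6% and 25.9% in IR. The few barcodes set aside as other cells, 8 to 37 per control library and 55 to 87 per IR library, held 6.06% to 12.7% and 18.8% to 22.1%, so that they too were higher in IR.

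Small subunit members held 0.85, 0.87 and 0.84 UMIs per large subunit UMI in control and 0.91, 0.90 and 0.85 in IR. In control the ratio of CD8 to CD4 cells was above 0 on the log2 scale for 83 of 86 members and 38.9% of all features at 10 CPM or more, with medians of 0.46 and -0.07 and no member past 2-fold.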
